A study of Arabidopsis thaliana with 15 samples.

Results

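UGT72E1, UGT72E2 and UGT72E3 are the 3 genes of the Arabidopsis UGT72E group of UDP-glycosyltransferases, and their transcripts were followed across roots of 5 genotypes. They were found as the probe sets annotated to exactly 1 of these genes, without use of any measured value. That gave 3 of the 22810 probe sets on the array, 1 for each gene, and no probe set was shared with another gene. The loci are AT3G50740 for UGT72E1, AT5G66690 for UGT72E2 and AT5G26310 for UGT72E3.

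Monolignols are the phenylpropanoid alcohols from which lignin is built. UGT72E2 and UGT72E3 are known to transfer glucose to coniferyl and sinapyl alcohol, which yields the storage glucosides coniferin and syringin, and these glucosides accumulate in Arabidopsis roots grown in light. UGT72E1 is known to act on the corresponding aldehydes, coniferaldehyde and sinapaldehyde. Beta-glucosidases of the BGLU45 group can release the monolignol from its glucoside.

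Roots were taken from 2-week-old Arabidopsis thaliana plants grown on modified Knop's medium at 23°C with 16 h of light and 8 h of darkness, with 3 samples per genotype. The genotypes were the grf1/grf2/grf3 triple mutant (ecotype labels Col-0 and WS), P35S:rGRF1 (labelled Col-0), P35S:rGRF3 (labelled WS), and the wild types WS and Col-0. GRF1, GRF2 and GRF3 encode growth-regulating transcription factors, and the P35S lines express a form of GRF1 or GRF3 that the microRNA miR396 cannot target, from the strong and broadly active 35S promoter of cauliflower mosaic virus. The question in the series title is which root genes are under the control of GRF1 and GRF3. The labels name neither the mutant alleles nor the number of independent lines, and they do not say that samples came from separate cultures, and p-values then cover only how these samples vary, which may be technical. GRF1, GRF2 and GRF3 themselves were not analysed here, which leaves the genotype labels without that check.

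Each sample was hybridised to 1 Affymetrix array, and the values are MAS5 signals, a brightness per probe set on a linear scale. The number of arrays limits the precision. The 18 hybridization controls, probe sets for RNA added to each cocktail, read 10.72 to 11.2 (log2 signal) on the 6 arrays of the mutant and WS and 9.68 to 10.33 on the 9 arrays of P35S:rGRF1, P35S:rGRF3 and Col-0. By these controls the mutant against WS, and each P35S line against Col-0 or against the other, compare arrays of 1 set. The mutant against Col-0, P35S:rGRF3 against WS, and WS against Col-0 cross the sets, and there a genotype cannot be told apart from its set of arrays. P35S:rGRF3 against Col-0 stays within 1 set but compares plants labelled with different ecotypes. Of 8 root markers 1 was named on the array, EXPA7, an expansin of root hair cells, at 9.06 to 9.88 (group means of log2 signal). Of 10 photosynthesis genes used as shoot markers 3 were named, and those called in a comparison stand beside its results.

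Differences are given as log2 of the first genotype minus the second, from limma fitted to all arrays. A difference counts as passed at a Benjamini-Hochberg adjusted p under 0.05 over the 13648 probe sets bright enough to be tested, which include all 3 UGT72E probe sets.

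UGT72E2 and UGT72E3 were both higher in roots of the grf1/grf2/grf3 mutant than in WS roots, by more than the spread of either group. The mutant carries both ecotype labels, and mutation and ecotype cannot be told apart there. Against Col-0, across the array sets, only UGT72E3 passed as higher in the mutant. UGT72E1 and UGT72E2 were much lower in P35S:rGRF3 and in WS than in Col-0, while UGT72E3 did not differ in that way. In P35S:rGRF1 none (0 of 3) of the genes passed the test against Col-0. The plot of signals by genotype gives the values on every array.

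**Figure D1:**
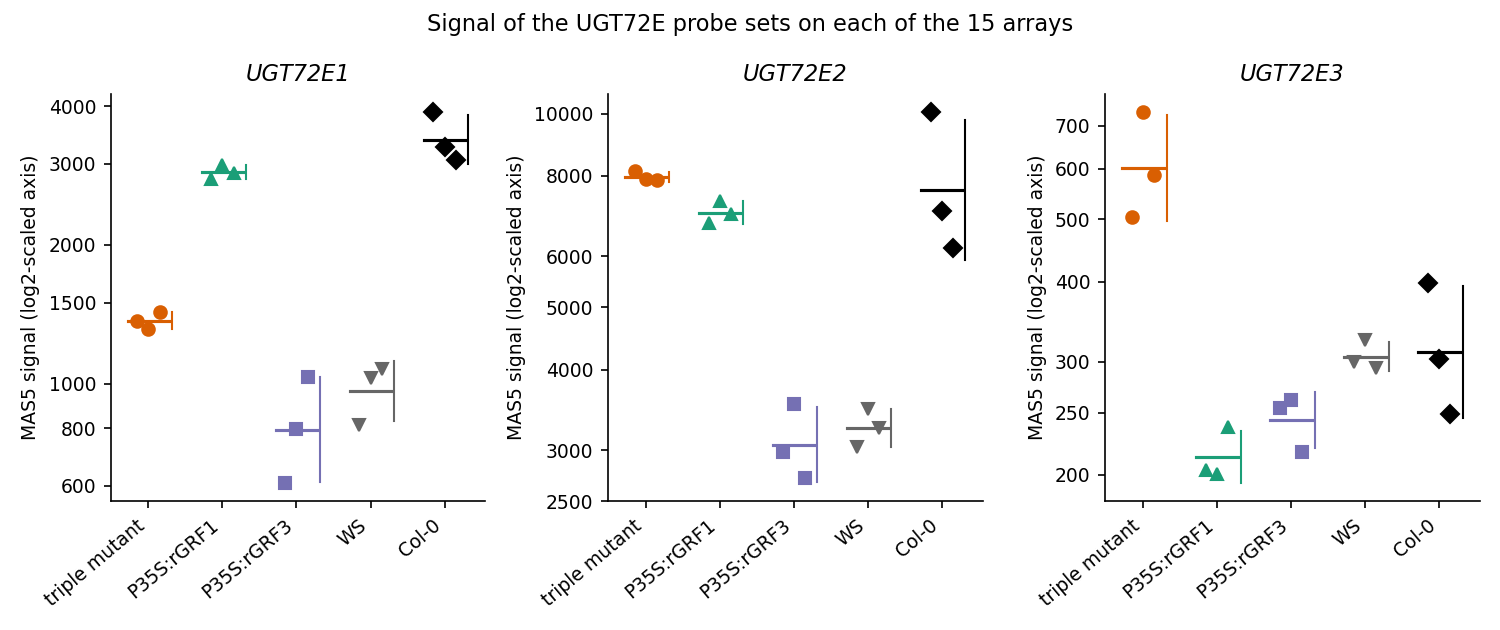
MAS5 signal of UGT72E1, UGT72E2 and UGT72E3 (log2-scaled vertical axes, a different range in each panel) on 3 arrays of each of 5 genotypes; points are arrays in the order of their replicate labels, horizontal bars the mean of log2 signals, and vertical bars 1 SD on each side. UGT72E1 and UGT72E2 are low in P35S:rGRF3 and WS, and UGT72E3 is highest in the triple mutant.

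UGT72E1, the aldehyde-glucosylating member, read 1368, 1313 and 1428 (signal) on the mutant arrays. It read 2780, 2982 and 2871 in P35S:rGRF1 and 609, 798 and 1032 in P35S:rGRF3. In the wild types it read 811, 1027 and 1076 in WS and 3889, 3259 and 3066 in Col-0. Col-0 and P35S:rGRF1 were high, P35S:rGRF3 and WS were low with overlapping arrays, and the mutant lay between without touching any other genotype. The means of log2 signal were 10.42 ± 0.06 in the mutant, 11.49 ± 0.05 in P35S:rGRF1, 9.63 ± 0.38 in P35S:rGRF3, 9.91 ± 0.22 in WS and 11.73 ± 0.18 in Col-0 (SD, n = 3 each).

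In order from high to low, the genotypes ran Col-0, P35S:rGRF1, triple mutant, WS, P35S:rGRF3 for UGT72E1. The arrays of P35S:rGRF1 all lay below those of Col-0, but the difference did not pass the test, and WS and P35S:rGRF3 overlapped. The span between the highest and lowest group mean was 2.09 on the log2 scale, wider than at 95.5% of the probe sets tested.

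UGT72E2, a monolignol glucosyltransferase, read 8150, 7916 and 7880 on the mutant arrays, the tightest triplet of the 3 genes, with a coefficient of variation of 1.83%. It read 6766, 7321 and 6975 in P35S:rGRF1 and 2984, 3533 and 2713 in P35S:rGRF3. It read 3036, 3478 and 3245 in WS and 10055, 7067 and 6187 in Col-0. The 15 arrays thus fell into a bright group, with every array of the mutant, P35S:rGRF1 and Col-0, and a dim group with every array of P35S:rGRF3 and WS; no array lay between 3533 and 6187. On the log2 scale the means were 12.96 ± 0.03 in the mutant, 12.78 ± 0.06 in P35S:rGRF1, 11.58 ± 0.19 in P35S:rGRF3, 11.67 ± 0.10 in WS and 12.89 ± 0.36 in Col-0 (SD, n = 3 each).

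From high to low the genotypes ran triple mutant, Col-0, P35S:rGRF1, WS, P35S:rGRF3 for UGT72E2. Col-0 overlapped both the mutant and P35S:rGRF1, and WS overlapped P35S:rGRF3, so the only step in the order that exceeded the spread was the one from P35S:rGRF1 to WS. The mutant is labelled with both ecotypes and P35S:rGRF3 with WS.

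UGT72E3, the second monolignol glucosyltransferase, was a dimmer probe set. It read 505, 735 and 586 on the mutant arrays, 204, 201 and 238 in P35S:rGRF1, and 254, 262 and 217 in P35S:rGRF3. It read 300, 325 and 293 in WS and 398, 303 and 249 in Col-0. Every mutant array lay above every array of the other 4 genotypes, and no such gap separated WS from Col-0. The log2 means were 9.23 ± 0.27 in the mutant, 7.74 ± 0.13 in P35S:rGRF1, 7.93 ± 0.15 in P35S:rGRF3, 8.26 ± 0.08 in WS and 8.28 ± 0.34 in Col-0 (SD, n = 3 each).

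From high to low the order for UGT72E3 was triple mutant, Col-0, WS, P35S:rGRF3, P35S:rGRF1. Col-0 overlapped WS, and P35S:rGRF3 overlapped P35S:rGRF1. The arrays of WS all lay above those of P35S:rGRF3, a difference that did not pass the test.

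All 3 genes passed the test in the triple mutant against WS, each of them higher, where 13.9% of the probe sets tested passed in either direction 7.38% being higher and 6.54% lower. UGT72E2 rose by 1.297 (SE 0.14, adjusted p = 3.36e-05), a 2.46-fold difference with an interval of 2.00 to 3.02. UGT72E3 rose by 0.98 (SE 0.17, adjusted p = 0.0013), a 1.97-fold difference with an interval of 1.53 to 2.52. UGT72E1 rose by 0.51 (SE 0.16, adjusted p = 0.0438). No array of the mutant overlapped WS at any of the 3 genes. The mutant is labelled with both ecotypes, so the grf mutations and ecotype cannot be told apart here. Nor can transcript level and probe match, since probes of this kind follow Col-0 sequence. The call of UGT72E1 was lost when any 1 of the 6 arrays was left out (adjusted p = 0.0555 to 0.179), as it was when dim probe sets were kept in the adjustment (adjusted p = 0.0602). The calls of UGT72E2 and UGT72E3 held in each of those fits.

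UDP-glycosyltransferase genes were taken by a symbol of UGT and a number, which gave 25 tested genes. Among them UGT72E2 and UGT72E3 had the largest and the second largest difference between the mutant and WS. Of the other 22 genes 5 rose and none (0) fell, where 7.38% of all probe sets tested were higher and 6.54% lower. Their differences lay between -0.59 for UGT73B1 and 0.75 for UGT71C1. Their median was 0.20, against a median of -0.01 over all probe sets tested. UGT72B1, with the reference symbol GT72B1, was not among the 25 and rose by 0.65 (adjusted p = 0.00124). On the same arrays the 3 shoot markers fell, LHCB4.1 of the light-harvesting complex by 0.88 (adjusted p = 0.0338), PSBW by 1.101 (adjusted p = 0.0152) and PSBY by 0.67 (adjusted p = 0.0036), the last 2 being small subunits of photosystem II. Their summed signal was 846 to 1463 in the mutant and 1888 to 2310 in WS, and none was at 0. Signal of 25S ribosomal RNA was 9.77 to 10.81 in the mutant and 11.42 to 11.69 in WS (log2 signal). The part of the markers and of the ribosomal signal in the UGT72E differences was not tested. In whole roots, more cells of a type and more RNA per cell cannot be told apart.

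Against Col-0, across the array sets, the mutant gave a different picture for each gene, in a comparison where 45.1% of all probe sets passed, 28.1% higher and 17.0% lower. UGT72E3 was higher, by 0.95 (SE 0.17, adjusted p = 2.73e-04), and its mutant arrays lay above all Col-0 arrays. UGT72E2 differed by 0.07, with an interval of -0.23 to 0.37 and overlapping arrays (adjusted p = 0.711). UGT72E1 was lower, at -1.31 (SE 0.16, adjusted p = 7.01e-06). UGT72E3 was thus the 1 gene of the 3 that passed as higher in the mutant against each wild type, and UGT72E1 lay above WS and below Col-0. In the same comparison the shoot marker LHCB4.1 (-0.69, adjusted p = 0.041, with overlapping arrays) and the root marker EXPA7 (-0.46, adjusted p = 0.0331) were lower. The shoot markers PSBW (-0.66, adjusted p = 0.0666) and PSBY (0.20, adjusted p = 0.24) did not pass. Ribosomal 25S signal on the mutant arrays was 9.77 to 10.81, against 11.83 to 12.51 on those of Col-0. The part of the markers and of the ribosomal signal was not tested.

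None (0 of 3) of the genes passed in P35S:rGRF1 against Col-0, where 10.5% of all probe sets did in limma's test, 5.30% higher and 5.17% lower. With limma's unadjusted p, 1 of the 3 was under 0.05, UGT72E3, whose adjusted p of 0.0519 lay just above the threshold. UGT72E3 differed by -0.54 (SE 0.17), with all 3 arrays of the line below those of Col-0. UGT72E1 differed by -0.24, with an interval of -0.57 to 0.10 (adjusted p = 0.36), and UGT72E2 by -0.12, with an interval of -0.41 to 0.18 (adjusted p = 0.63). For UGT72E3 the call was made in 3 of 14 refits: after quantile normalization (-0.59, adjusted p = 0.0363), with weights for the arrays (-0.49, adjusted p = 0.0134) and without Col-0 replicate 3 (-0.70, adjusted p = 0.0169). The other 11 made no call, among them those without Col-0 replicate 1 (-0.36, adjusted p = 0.23) and with the poly-A covariate (-0.54, adjusted p = 0.12).

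Col-0 replicate 1 was the brightest Col-0 array for all 3 genes, at 3889, 10055 and 398. It read 8.01 at the poly-A controls, RNA added before labelling, where the other Col-0 arrays both read 8.89 (log2 signal). The 25S ribosomal probe set read 12.84 to 12.91 in P35S:rGRF1 and 11.83 to 12.51 in Col-0, lowest on replicate 1. Without that array the difference of P35S:rGRF1 at UGT72E2 was 0.09 (adjusted p = 0.717). With the poly-A signal as a covariate UGT72E1 in P35S:rGRF1 stood at 0.01 (adjusted p = 0.97), and the part of the ribosomal signal was not tested.

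In P35S:rGRF3 against Col-0, which shares its Col-0 arrays with the comparison of P35S:rGRF1, 2 of the 3 genes passed, both lower, where 11.9% of all probe sets passed, 5.30% higher and 6.61% lower. UGT72E1 was lower by 2.09 (SE 0.16, adjusted p = 4.84e-07), which is 4.26-fold, and 0.271% of the probe sets tested had a larger difference. UGT72E2 was lower by 1.31 (SE 0.14, adjusted p = 1.21e-05), which is 2.49-fold. UGT72E3 differed by -0.35, with an interval of -0.71 to 0.01 (adjusted p = 0.204). Among the 25 tested genes with a symbol of UGT and a number, UGT72E1 had the largest difference. The other 22 ranged from -1.36 for UGT76D1 to 0.82 for UGT84A4. The line is labelled WS, so transgene and ecotype cannot be told apart here, nor can transcript level and probe match. Ribosomal 25S signal was 10.96 to 12.09 in P35S:rGRF3 and 11.83 to 12.51 in Col-0, and its part was not tested. The poly-A controls read 6.96 to 9.02 and 8.01 to 8.89. With the poly-A signal as a covariate the differences were -2.19 at UGT72E1 and -1.32 at UGT72E2, and both calls held.

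The same line was also set against WS, the ecotype of its label, across the array sets, where 52.4% of all probe sets passed, 19.4% higher and 33.0% lower. None (0 of 3) of the UGT72E genes passed in limma's test there, adjusted or unadjusted. UGT72E1 differed by -0.28 (interval -0.61 to 0.06, adjusted p = 0.152), UGT72E2 by -0.09 (interval -0.38 to 0.21, adjusted p = 0.626) and UGT72E3 by -0.33 (interval -0.69 to 0.03, adjusted p = 0.115). UGT72E1 passed with weights for the arrays (-0.38, adjusted p = 0.0336) and without P35S:rGRF3 replicate 3 (-0.47, adjusted p = 0.0146). That array read 6.96 at the poly-A controls, against 9.02 and 8.78 on the other arrays of the line, and 10.96 at the 25S ribosomal probe set, against 12.09 and 12.00. It was the brightest of the 3 for UGT72E1 and the dimmest for UGT72E2 and UGT72E3. Of the markers PSBW (-0.75, adjusted p = 0.0324) and PSBY (-1.10, adjusted p = 5.03e-06) were lower and EXPA7 (0.82, adjusted p = 5.72e-04) higher in P35S:rGRF3 than in WS, and their part was not tested.

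WS itself differed from Col-0 at 2 of the 3 genes, in a comparison across the sets where 51.7% of all probe sets passed, 31.4% higher and 20.3% lower. UGT72E1 was lower, at -1.81 (SE 0.16, adjusted p = 1.81e-07), and so was UGT72E2, at -1.23 (SE 0.14, adjusted p = 2.87e-06). UGT72E3 differed by -0.02, with an interval of -0.38 to 0.34 (adjusted p = 0.924). The shoot marker PSBY was higher (0.86, adjusted p = 6.00e-05) and EXPA7 lower (-0.77, adjusted p = 0.00106) in WS than in Col-0. Ribosomal 25S signal was 11.42 to 11.69 in WS and 11.83 to 12.51 in Col-0. The part of these in the UGT72E differences was not tested. The comparisons of P35S:rGRF3 and of WS with Col-0 share the Col-0 arrays. Probes of this kind follow Col-0 sequence, and a lower transcript level and a poorer probe match in WS cannot be told apart.

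**Figure D2:**
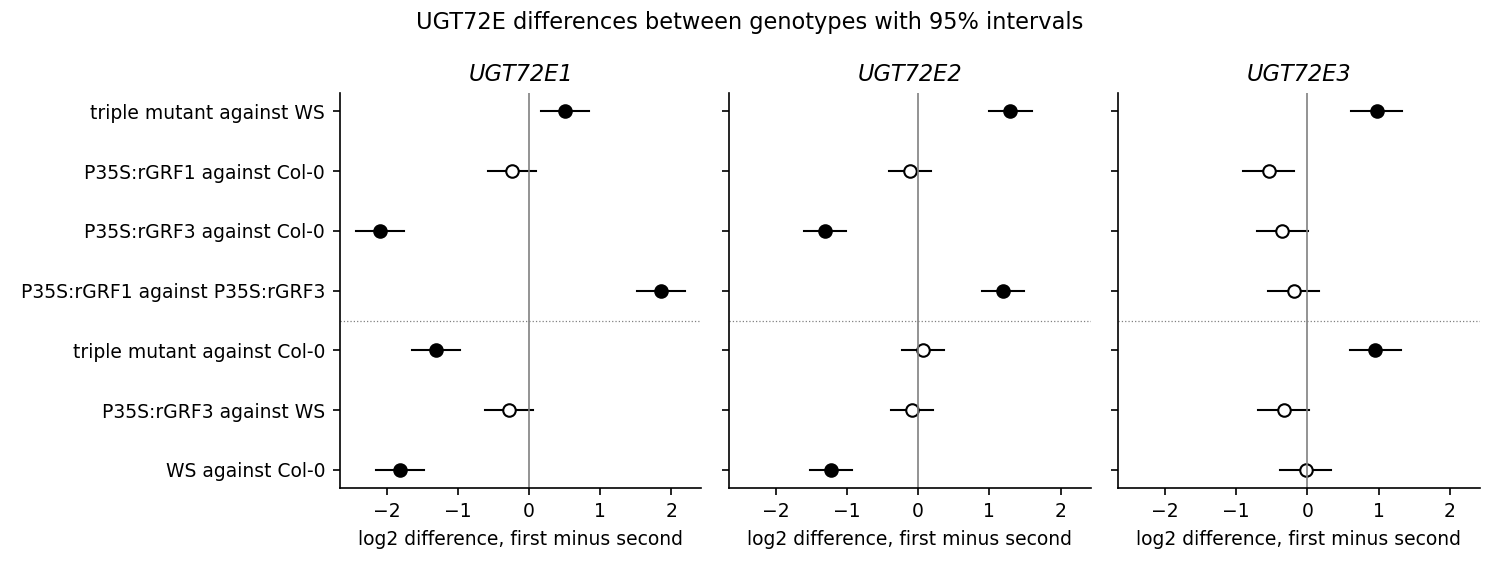
Differences of UGT72E1, UGT72E2 and UGT72E3 in 7 comparisons (horizontal axes, log2 of the first genotype minus the second, with 95% intervals); filled points passed the adjusted threshold, open points did not, and comparisons below the dotted line cross the array sets. UGT72E1 and UGT72E2 sit far below 0 for P35S:rGRF3 and WS against Col-0, and UGT72E3 is above 0 in the mutant against either wild type.

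The overexpression lines were also compared directly, within 1 array set, where 21.2% of all probe sets passed, 12.6% higher and 8.63% lower in P35S:rGRF1. UGT72E1 was higher in P35S:rGRF1 than in P35S:rGRF3 by 1.86 (SE 0.16, adjusted p = 1.54e-06) and UGT72E2 by 1.20 (SE 0.14, adjusted p = 2.54e-05), with no overlap of arrays. Of the 3 shoot markers PSBW (0.85) and PSBY (0.58) were also higher in P35S:rGRF1, with summed signals of 2299 to 2374 there and 1157 to 2009 in P35S:rGRF3. Ribosomal 25S signal was 12.84 to 12.91 in P35S:rGRF1 and 10.96 to 12.09 in P35S:rGRF3, and the poly-A controls read 9.30 to 9.73 and 6.96 to 9.02. The part of the markers and of the ribosomal signal was not tested. With the poly-A signal as a covariate the differences were 2.203 at UGT72E1 and 1.22 at UGT72E2, and both calls held, while the count over all probe sets fell to 1330, against 2891 without it. UGT72E3 differed by -0.19, with an interval of -0.55 to 0.17 (adjusted p = 0.455). The lines carry different ecotype labels, so line and ecotype cannot be told apart here. When each line was first set against the wild type of its own label, the changes of the lines differed by 0.04 (interval -0.43 to 0.52) at UGT72E1, -0.03 (interval -0.45 to 0.39) at UGT72E2 and -0.21 (interval -0.72 to 0.30) at UGT72E3. None (0 of 3) of these differences passed (adjusted p = 0.488 to 0.916, in limma), where 48.8% of all probe sets did, and this contrast crosses the array sets.

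How closely the 3 genes varied together depended on the arrays taken. Over all 15 arrays the log2 signals of UGT72E1 and UGT72E2 correlated at r = 0.78, those of UGT72E2 and UGT72E3 at r = 0.42, and those of UGT72E1 and UGT72E3 at r = -0.13. Over the 6 arrays of the mutant and WS all pairs were close, at 0.91 for UGT72E1 and UGT72E2, 0.83 for UGT72E1 and UGT72E3, and 0.94 for UGT72E2 and UGT72E3. Over the 9 other arrays UGT72E1 and UGT72E2 correlated at 0.94, UGT72E2 and UGT72E3 at 0.36, and UGT72E1 and UGT72E3 at 0.22. These values describe arrays that share genotypes and array sets. After the mean of each genotype was subtracted, the order changed: UGT72E2 and UGT72E3 correlated at 0.70, UGT72E1 and UGT72E2 at 0.29, and UGT72E1 and UGT72E3 at 0.04. These values pool the genotypes, and UGT72E2 and UGT72E3 both spread most in Col-0 (SD 0.36 and 0.34). Correlations inside single genotypes were not tested.

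UGT72E2 and UGT72E3 are close relatives in sequence, and whether probes of one bind transcripts of the other was not tested. The log2 signal of UGT72E2 minus that of UGT72E3 on the same array was 3.73 ± 0.29 in the mutant, 5.04 ± 0.16 in P35S:rGRF1, 3.65 ± 0.10 in P35S:rGRF3, 3.41 ± 0.07 in WS and 4.61 ± 0.06 in Col-0 (SD, n = 3 each). The 3 Col-0 arrays spread by 0.36 and 0.34 (SD) at the separate genes, so the genes varied together there. Both genes were higher in the mutant than in WS, while between WS and Col-0, across the array sets, UGT72E2 differed by -1.23 and UGT72E3 by -0.02.

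**Figure D3:**
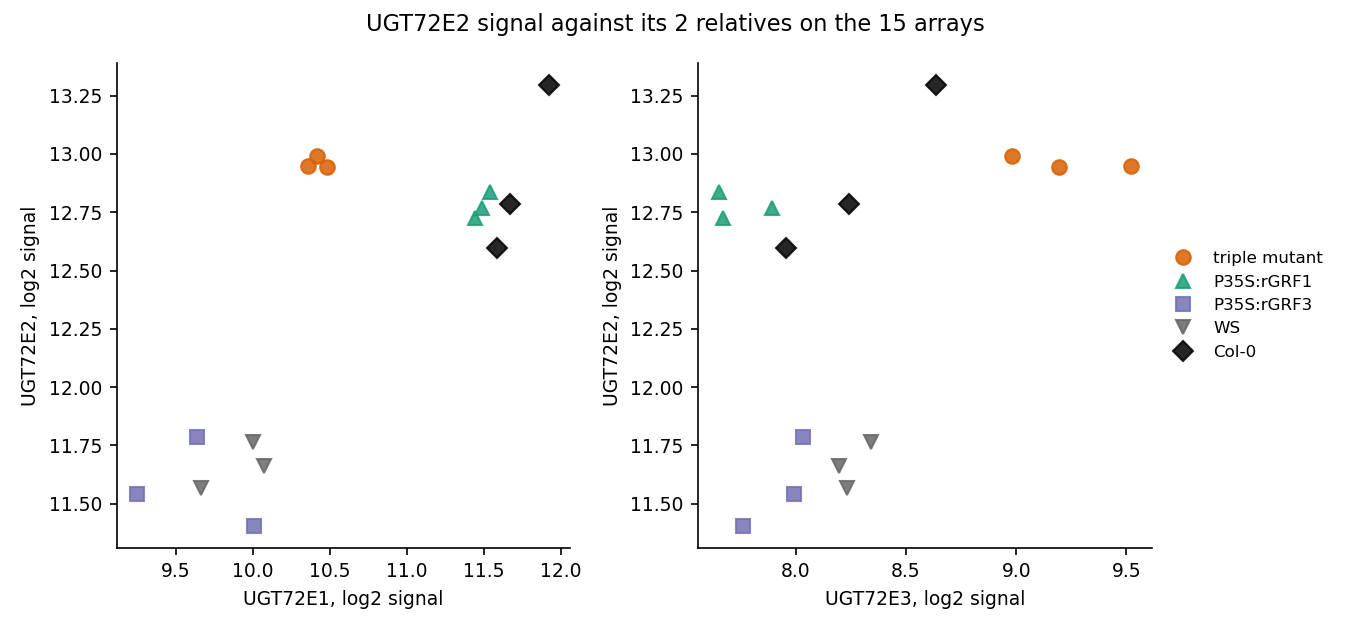
Log2 signal of UGT72E2 (vertical axes) against UGT72E1 (left) and UGT72E3 (right) on the 15 arrays, marked by genotype. P35S:rGRF3 and WS lie low for UGT72E2 in both panels, and the mutant stands apart to the right for UGT72E3 and between the other genotypes for UGT72E1.

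Further genes of phenylpropanoid metabolism were described from 9 lists with 87 genes. Of these 29 had a named probe set of their own and 21 were bright enough to be tested, so most steps of the pathway, the first among them, were not analysed here. In the mutant against WS 7 of 21 were higher and 2 lower, with a median of 0.25, against -0.01 over all probe sets tested, of which 7.38% were higher and 6.54% lower. UGT71C1 and UGT72B3 are in this count and also in that of the UDP-glycosyltransferase genes above. In P35S:rGRF1 against Col-0 none (0 of 21) were higher and 7 lower, with a median of -0.14 against 0.03 over all probe sets tested, of which 5.30% were higher and 5.17% lower. In P35S:rGRF3 against Col-0 2 were higher and 5 lower, with a median of -0.28, against -0.02 over all, of which 5.30% were higher and 6.61% lower.

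The list for monolignol synthesis held 4 tested genes, and whether each of them acts in that pathway was not tested. HCT, the hydroxycinnamoyltransferase that leads towards coniferyl and sinapyl units, was higher in the mutant than in WS by 0.33 (adjusted p = 0.045) and lower in P35S:rGRF1 than in Col-0, at -0.36 (adjusted p = 0.0368). CYP84A4, a cytochrome P450 of the ferulate 5-hydroxylase family, was higher in the mutant than in WS by 0.62 (adjusted p = 0.0275). CCR2, a cinnamoyl-CoA reductase, and CCOAMT, of the caffeoyl-CoA methyltransferases, did not pass in either of those comparisons or in P35S:rGRF3 against Col-0. All 4 were lower in WS than in Col-0, across the array sets, where 20.3% of all probe sets were lower. The differences were -3.16 at CCOAMT, -0.69 at CCR2, -0.61 at CYP84A4 and -0.46 at HCT. CCOAMT averaged 5.79 in the mutant and 6.24 in WS (log2 signal), both below the filter value of 6.84. It passed the filter only through the other genotypes, whose means were 9.35 to 10.49.

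Of the beta-glucosidases that act on the products of UGT72E2 and UGT72E3, 2 were tested and 1 passed in the mutant against WS, in the direction opposite to the glucosyltransferases. BGLU45, a coniferin beta-glucosidase, averaged 6.42 ± 0.21 in the mutant and 7.71 ± 0.23 in WS (log2 signal, SD, n = 3 each), lower, at -1.29 (SE 0.39, adjusted p = 0.0362), with the mutant below the filter value of 6.84. BGLU46, a related monolignol glucoside beta-glucosidase, read 9.50 ± 0.22 in the mutant and 9.92 ± 0.13 in WS (difference -0.42, adjusted p = 0.351). In P35S:rGRF3 against Col-0 BGLU45 stood at -1.15 (adjusted p = 0.0667) and BGLU46 at -0.08 (adjusted p = 0.899). BGLU45 averaged 6.39 in P35S:rGRF3 (log2 signal), also below the filter value, and its arrays overlapped those of Col-0. BGLU47 was too dim to be tested, with group means of 4.58 to 6.59.

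Other genes of the UGT72 family were measured too. UGT72B1, known for glucosylating chlorophenols as well as monolignols and their aldehydes, read 12.16 ± 0.13 in the mutant and 11.50 ± 0.05 in WS (log2 signal, SD, n = 3), higher by 0.65 (adjusted p = 0.00124). It was lower in P35S:rGRF1 than in Col-0, at -0.73 (adjusted p = 0.00128) and higher in P35S:rGRF3 than in Col-0 by 0.50 (adjusted p = 0.00839), so the lines stood on opposite sides of Col-0 and differed by -1.23. UGT72B3 was higher in the mutant than in WS by 0.75 (adjusted p = 0.0458), and lower than in Col-0 in both P35S:rGRF1 (-0.81, adjusted p = 0.0396) and P35S:rGRF3 (-1.02, adjusted p = 0.0096). Its arrays overlapped between P35S:rGRF1 and Col-0. The means of UGT72B3 were 6.55 in P35S:rGRF1 and 6.33 in P35S:rGRF3 (log2 signal), below the filter value of 6.84. The probe sets of AT1G01390 and AT4G36770 were dim in every genotype, with group means of at most 4.09, and were not tested.

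UGT71C1, known to glucosylate lignans, was the 1 tested gene of the lignan list. It was higher in the mutant than in WS by 0.75 (SE 0.12, adjusted p = 6.18e-04) and lower than in Col-0 in both P35S:rGRF1 (-0.60, adjusted p = 0.00509) and P35S:rGRF3 (-0.39, adjusted p = 0.0376). UGT78D2, a flavonoid glucosyltransferase, was lower in P35S:rGRF1 than in Col-0, at -0.66 (adjusted p = 0.0273) and stood at 0.06 in the mutant against WS (adjusted p = 0.861).

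Coumarins branch from the same precursors as monolignols. F6'H1, the feruloyl-CoA hydroxylase that begins scopoletin synthesis, was higher in the mutant than in WS by 0.65 (adjusted p = 7.87e-04), lower in WS than in Col-0, at -1.90 (adjusted p = 8.52e-10), and stood at 0.01 in P35S:rGRF1 and 0.09 in P35S:rGRF3 against Col-0. F6'H2 (-0.70, adjusted p = 0.0292) and AT1G28680 (-0.61, adjusted p = 0.019) were lower in P35S:rGRF1 than in Col-0. F6'H2 averaged 6.77 in P35S:rGRF1 (log2 signal), below the filter value of 6.84. AT3G12900 was lower in the mutant than in WS, at -1.04 (adjusted p = 0.0357), with overlapping arrays. Both groups lay below the filter value there, at 5.71 in the mutant and 6.75 in WS. AT3G12900 passed the filter only through the other genotypes, whose means were 10.14 to 11.09.

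Of the genes for lignin polymerization 4 were named and 3 tested. The peroxidase gene PRX71 (AT5G64120) averaged 7.48 in the mutant and 6.39 in WS (log2 signal), with WS below the filter value of 6.84. PRX71 was higher in the mutant than in WS by 1.09 (adjusted p = 5.68e-04) and lower in P35S:rGRF3 than in Col-0, at -2.01 (adjusted p = 1.43e-06). Against WS, across the array sets, the same line was higher at PRX71, at 3.61 (adjusted p = 1.50e-10), with WS lower than Col-0, at -5.62 (adjusted p = 7.28e-13). The mutant was lower than Col-0 at PRX71, at -4.53 (adjusted p = 1.06e-11), also across the sets. PRX25 was lower in P35S:rGRF3 than in Col-0, at -1.24 (adjusted p = 0.0062), and PRX72 passed in neither comparison. PRX52 was too dim on the mean of all arrays to be tested, but it stood at 10.11 ± 0.24 in P35S:rGRF3, against 4.29 ± 0.51 in the mutant, 3.55 ± 1.77 in P35S:rGRF1, 5.12 ± 0.41 in WS and 4.08 ± 0.87 in Col-0 (log2 signal, SD, n = 3 each), and is named here after its values were seen. Of the genes for hydroxycinnamate and sinapate esters, UGT84A4 was higher (0.82, adjusted p = 0.00364) and REF1, a sinapaldehyde and coniferaldehyde dehydrogenase also named ALDH2C4, lower (-0.44, adjusted p = 0.0053) in P35S:rGRF3 than in Col-0. Against WS neither passed, at 0.35 for UGT84A4 (adjusted p = 0.083) and 0.17 for REF1 (adjusted p = 0.133).

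**Figure D4:**
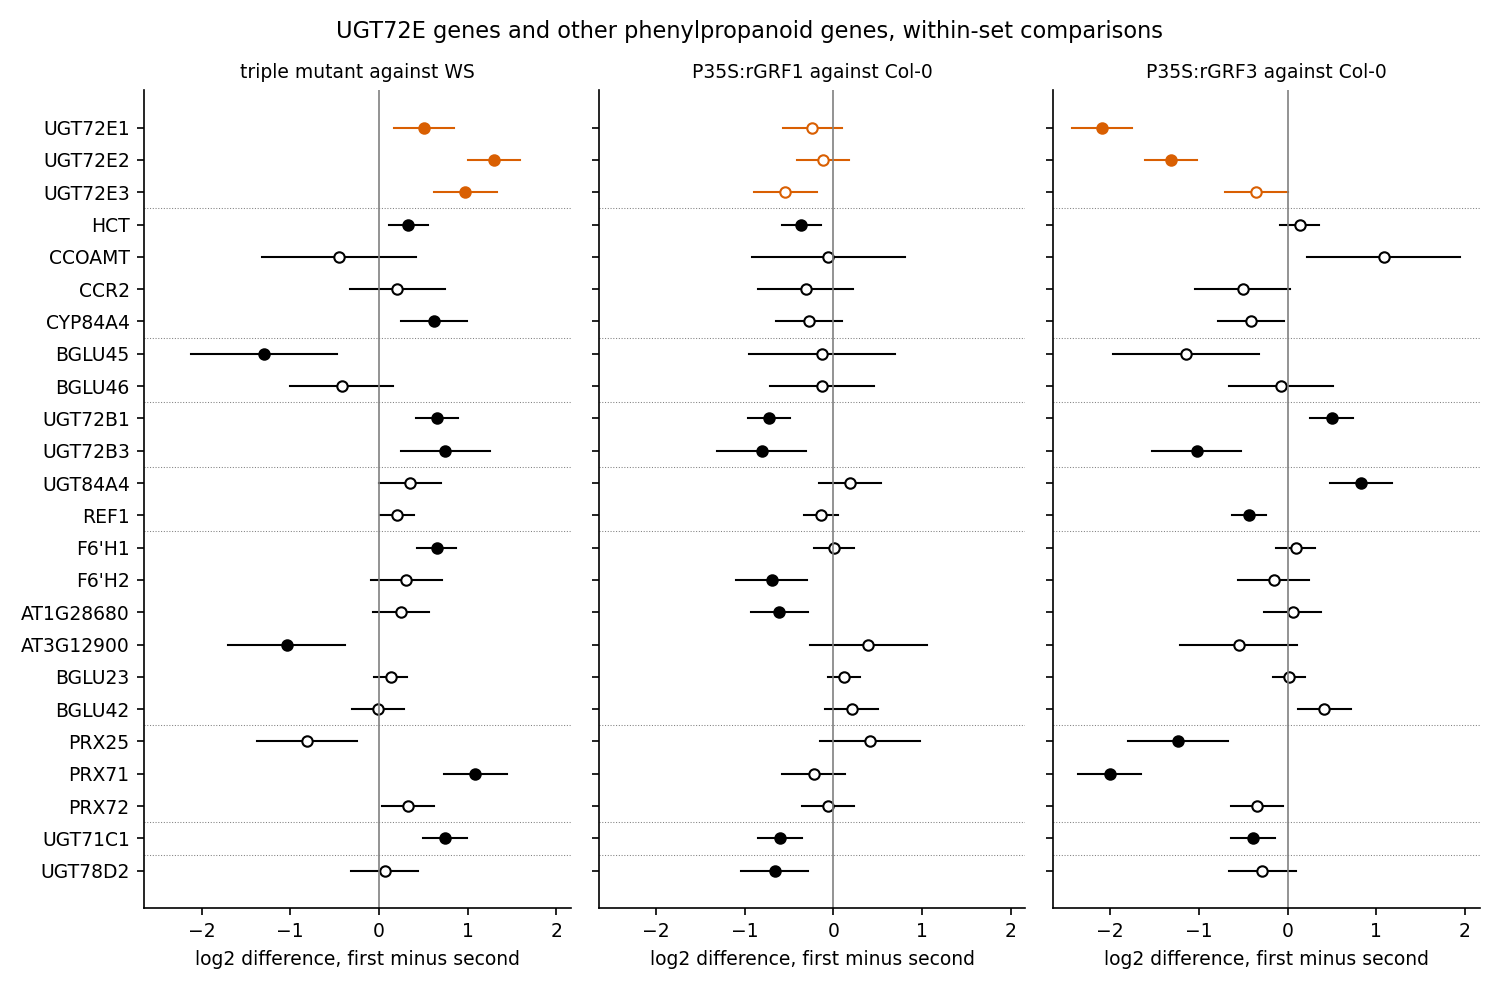
Differences of the UGT72E genes (top, orange) and of 21 other phenylpropanoid genes (black) in 3 comparisons within 1 array set (horizontal axes, log2 of the first genotype minus the second, with 95% intervals); filled points passed the adjusted threshold and dotted lines separate the gene lists. Higher values outnumber lower ones in the mutant against WS, and UGT72E1 and PRX71 lie farthest below 0 in P35S:rGRF3 against Col-0.

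Genes with the most similar signal over the 15 arrays were sought among 7345 tested probe sets with 1 named gene, as a description. For UGT72E1 they were AT5G42250 (r = 0.94), AT3G47110 (0.91), AT1G74360, AT5G56020 and AT1G18390, the last 3 at 0.89 to 0.90. With genotype means subtracted, their correlations with UGT72E1 were 0.56 for AT5G42250 and between -0.27 and 0.16 for the other 4. The most opposed to UGT72E1 were AT3G53890, AT3G16850 and AT2G02630, each at r = -0.90. With genotype means subtracted, these stood at -0.50, 0.04 and 0.45, in that order. The most similar to UGT72E2 were AT2G34610 (0.95), AT3G21690 (0.93), AT3G26470, AT4G39230 and AT5G18310, the last 3 at 0.88. With genotype means subtracted, these correlated with UGT72E2 at 0.75, 0.32, -0.05, 0.13 and 0.54, in that order.

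These genes were picked over all 15 arrays, so correlations within parts of those arrays, or a shared order of genotypes, are no separate check. AT2G34610 correlated with UGT72E2 at 0.96 over the 6 arrays and 0.99 over the 9 arrays, and at 0.75 with genotype means subtracted. It read 9.60 ± 0.40 in the mutant, 9.01 ± 0.10 in P35S:rGRF1, 6.46 ± 0.40 in P35S:rGRF3, 7.60 ± 0.24 in WS and 9.63 ± 0.60 in Col-0 (log2 signal, SD, n = 3 each), the same division into bright and dim genotypes. The gene most opposed to UGT72E2 was SWEET11, a sucrose efflux transporter, at r = -0.91 over all arrays and -0.85 with genotype means subtracted. AT2G43600 and AT5G35940 followed at -0.88 over all arrays, and at -0.46 and 0.03 with genotype means subtracted. SWEET11 read 11.16 ± 0.24 in the mutant, 10.88 ± 0.28 in P35S:rGRF1, 12.16 ± 0.37 in P35S:rGRF3, 12.19 ± 0.08 in WS and 10.84 ± 0.78 in Col-0. UGT72E2, AT2G34610 and SWEET11 all spread most in Col-0, and the part of the Col-0 arrays in these correlations was not tested.

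For UGT72E3 the most similar were AT2G44300 (0.95), AT1G72230 (0.94), the sulfurtransferase gene STR18 (0.94), UGT71C1 (0.94) and AT5G23750 (0.94). With genotype means subtracted, the correlations of all 5 with UGT72E3 were 0.59 to 0.91. These values pool the genotypes, and UGT72E3 and all 5 of these genes spread most in Col-0. The part of the Col-0 arrays in them was not tested. UGT71C1 read 11.68 ± 0.05 in the mutant, 10.63 ± 0.10 in P35S:rGRF1, 10.84 ± 0.12 in P35S:rGRF3, 10.93 ± 0.12 in WS and 11.23 ± 0.24 in Col-0 (log2 signal, SD, n = 3 each). It was highest in the mutant as UGT72E3 was, but it was picked for its likeness over these same arrays. The most opposed to UGT72E3 were AT1G33055, AT1G26250 and AT5G27400, at -0.95 to -0.94.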

How the data were processed

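The deposited values are linear signal intensities, 1 per probe set and array. Per the submitters' processing notes MAS5 was used, and its version is not given in the sources used here. Detection calls were not used. Intensities were taken to log2 with no offset or further normalization, since array medians spanned 0.149. The 64 control probe sets were left out, and probe sets with a mean log2 signal at or above the 40th percentile (6.84, a signal of 115) were tested. No pair (0) of arrays held identical values.

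All 15 arrays entered 1 linear model of genotype means (limma 3.58.1; R 4.3.3), with a mean-variance trend in eBayes, two-sided tests, with Benjamini-Hochberg adjustment and 95% intervals, and the code was tested on simulated data. Probe sets were named by the platform annotation, and loci by a RefSeq table (assembly TAIR10.1). The members, lists, comparisons and alternatives were chosen with earlier results of these data known.

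Genes named were the 3 members, up to 6 called genes of each list in the comparison described, every measured gene of the beta-glucosidase and UGT72 lists, and the 5 most alike and 3 most opposed probe sets by correlation. Values given beside these, for comparison, were chosen after they were seen. Alternatives were other filters, an offset of 16, quantile normalization, array weights, a replicate block, a poly-A covariate, fewer groups, and leaving out each array. Fits within 1 array set were added after the data were seen.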

Additional observations from a re-analysis of the deposited data

Results flagged for a closer look

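UGT72E1 and UGT72E2 stood out because their changes from the shared Col-0 arrays differed between the P35S lines. The change of P35S:rGRF1 minus that of P35S:rGRF3 was 1.86 at UGT72E1 and 1.20 at UGT72E2 on the log2 scale, and both passed limma's test of the difference itself (adjusted p = 1.54e-06 and 2.54e-05). Against Col-0, UGT72E1 stood at -0.24 in P35S:rGRF1 and -2.09 in P35S:rGRF3, and UGT72E2 at -0.12 and -1.31. P35S:rGRF1 is labelled Col-0 and P35S:rGRF3 WS. Ecotype and transgene cannot be told apart in these values.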

How the results depend on the processing

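Of 21 results, each a gene in a comparison, none (0) reversed. Calls changed in 4 of 173 refits with another setting and in 8 of 126 with 1 array left out. UGT72E1 in the mutant against WS (0.51) lost its call with no filter (0.51, adjusted p = 0.0602), and with each array left out (0.38 to 0.58). UGT72E3 in P35S:rGRF1 against Col-0 (-0.54) gained one with quantile normalization (-0.59), with array weights (-0.49), and without Col-0 replicate 3 (-0.70 to -0.36 over the arrays left out). UGT72E1 in P35S:rGRF3 against WS (-0.28) gained one with array weights (-0.38) and without P35S:rGRF3 replicate 3 (-0.47 to -0.087 over the arrays left out). The causes were not tested. Signs of uncalled values changed in 7 refits. UGT72E3 is not tested at the 60th percentile filter (a signal of 320).

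Counts of probe sets called moved by over 1.5 times for P35S:rGRF1 against Col-0, from 1429 to 3017 with array weights, 757 with the poly-A covariate, 919 with only the groups compared, 756 within 1 array set and 586 to 1554 with an array left out. They moved for P35S:rGRF3 against Col-0, from 1626 to 621 with only the groups compared and 973 to 1793 with an array left out. For P35S:rGRF1 against P35S:rGRF3 the count was 2891, 1330 with the poly-A covariate and 1672 to 2897 with an array left out, and for the mutant against WS 1900, and 1158 to 1392 with an array left out.

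The replicate numbers of the labels did not pair the samples. Deviations of same-numbered samples correlated at -0.17 to 0.25, and every sample correlated best with its own number in 1 of 7 comparisons (3 of 3, P35S:rGRF1 against P35S:rGRF3). With the replicate block no call (0 of 21) changed: UGT72E1 in the mutant against WS stood at 0.51 (adjusted p = 0.0465), and 1796 probe sets passed there.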
